A study of Mus musculus with 8 samples.

Results

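The prepubertal testis at day (d) 12 after birth was compared with the adult testis by RNA sequencing, with 1 library per stage. Of the 23983 genes listed, 13456 reached 2 FPKM in at least 1 of these libraries and were compared, where FPKM is the number of sequenced fragments of a gene scaled to transcript length and library depth. The log2 ratio of a gene is log2((adult FPKM + 1)/(d12 FPKM + 1)). Genes with a log2 ratio of -1 or less are called lower and those at -2 or less strongly lower. Genes within 0.25 of 0 are called kept and those at 1 or more higher. With 1 library per stage there is no spread between animals and no test, so these calls describe the libraries.

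The RNA libraries came from unsorted testis tissue of wild-type C57BL/6J mice without any treatment or transgene. A piece of fresh or frozen testis gave the total RNA for each strand-specific library. Besides d12 and adult, a d16 and a d24 library were available, and they were not used to choose the compared genes or their classes. The labels give no exact age for the adult animals and no number of animals behind a library. At d12, 9320597 fragments lay on genes, against 9913026 at d16, 24966213 at d24 and 12733275 in the adult library, and 1 fragment on a transcript of 1 kb was worth 0.0799, 0.0800, 0.0455 and 0.112 FPKM. Intervals in parentheses are exact 95% intervals computed from these fragments, and they cover counting error only.

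The testis is made of seminiferous tubules, in which germ cells develop in contact with Sertoli cells, and of the interstitium between them, with Leydig cells that make testosterone, vessels and macrophages. Spermatogonia divide by mitosis, enter meiosis as spermatocytes and give haploid spermatids, which reshape into sperm. In the first wave after birth these cell types appear in turn, so that a prepubertal testis holds somatic cells, spermatogonia and early spermatocytes, while an adult testis holds mostly spermatocytes and spermatids. During pachytene of male meiosis the X and Y chromosomes are known to be transcriptionally silenced.

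Lower genes numbered 2580, or 19.2% of the genes compared, and 318 of them (2.36%) were strongly lower. Kept genes numbered 1549 (11.5%) and higher genes 4785 (35.6%). A log2 ratio below 0 was found for 6009 genes (44.7%), and the median over all genes was 0.24 (quartiles -0.79 and 1.79). The median level of the lower genes was 10.6 FPKM at d12, then 7.41 at d16, 4.04 at d24 and 2.91 in the adult, and the kept genes had 11.003, 11.4, 11.5 and 11.003. Fragments could be counted for 2102 lower genes, and the interval of the d12 to adult ratio lay wholly above 1 for 2095 of them and wholly above 2 for 1795. These intervals come from the libraries that chose the genes, so the counts are a description, and variation between animals is not covered. In whole tissue, fewer cells of a type and less RNA per cell cannot be told apart. The scatter of d12 against adult levels shows the lower genes below the diagonal and the wider cloud of higher genes above it.

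**Figure D1:**
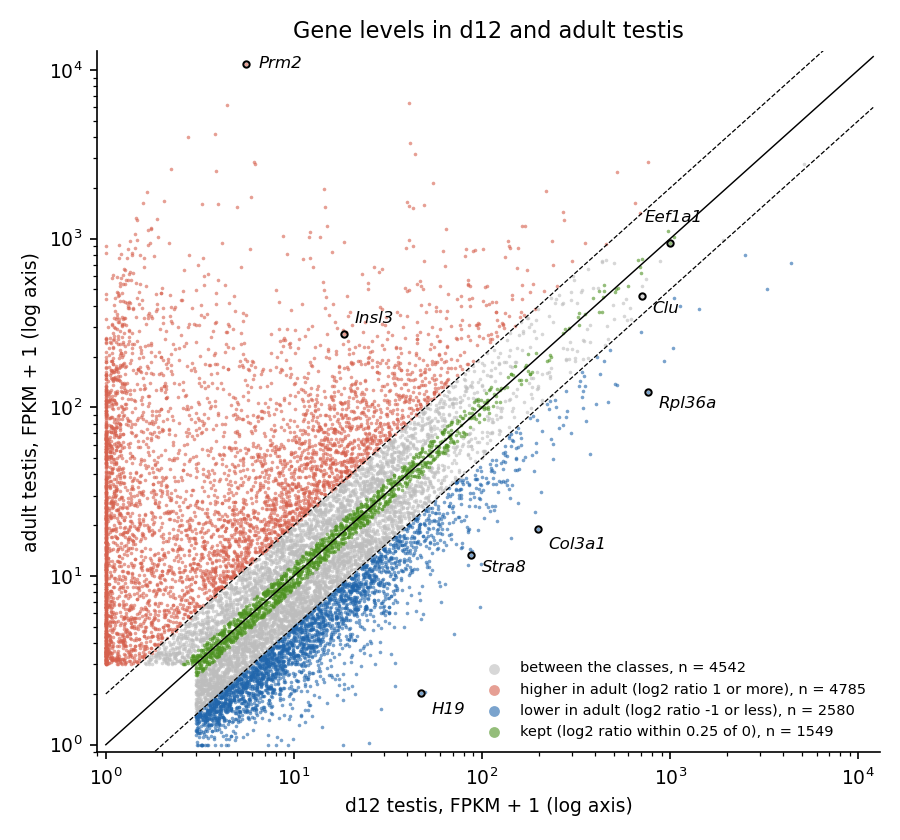
FPKM + 1 of the 13456 compared genes in the d12 library (x axis, log scale) and the adult library (y axis, log scale), 1 point per gene, coloured by class. The solid line marks equal values and the dashed lines a log2 ratio of 1 and -1. The 2580 lower genes lie under the lower dashed line, the 1549 kept genes along the diagonal and the 4785 higher genes above the upper dashed line. Black circles with names mark 8 example genes.

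Counts of lower, kept and higher genes depend on how the libraries are scaled to each other. The deposited FPKM values sum to 283580 at d12 and 659202 in adult testis. With both libraries brought to the same FPKM sum, the median log2 ratio shifted by -1.03, the lower genes numbered 6014 and the higher genes 3014. Lower genes were then 66.6% of the lower and higher calls together, against 35.0% as deposited. With equal upper quartiles this share was 60.9%, with equal sums over the cytoplasmic ribosomal proteins 29.3%, and with the median of all genes set to 0 it was 44.7%. Strongly lower genes, 318 as deposited, numbered 1932 with equal FPKM sums and 1409 with equal upper quartiles, and 852 with a pseudocount of 0.1 FPKM, so that the counts of strongly lower genes below hold for the deposited scale and a pseudocount of 1. Each scaling shifts nearly all expressed genes by a like amount. The 2143 genes lower in all 5 scalings are thus those lower with equal ribosomal protein sums, and shifts larger than the band of kept genes left 0 of 1549 kept in all 5. Directions below are on the deposited scale. Rank percentiles among the compared genes of a library, which rescaling of that library does not change, are given for the classes and for several gene groups. The set of compared genes itself rests on the deposited scale, as 2699 genes reached 2 FPKM only in the adult library and 1539 only at d12. This imbalance also enters the ranks of the classes and gene groups. The lower genes had a median rank percentile of 60.9 among the compared genes at d12 and 19.4 in adult testis. The same 2 libraries chose these genes, so their fall in rank was built into the choice. For the kept genes the median rank percentile was 62.1 at d12 and 49.8 in adult testis, so that equal FPKM went with a lower place among the genes of the adult library. The bar plot of counts by scaling gives the classes under each choice.

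**Figure D2:**
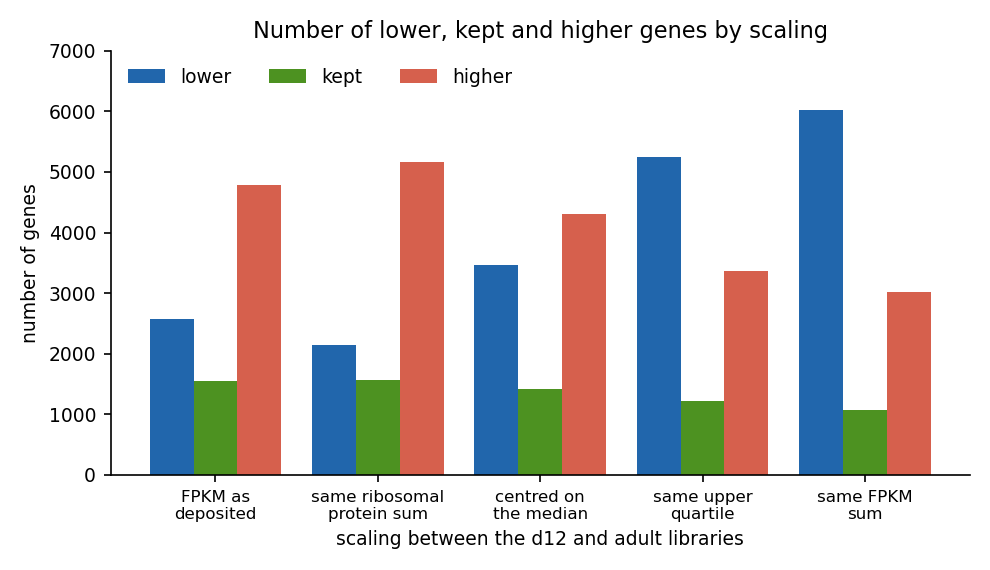
Number of lower, kept and higher genes (y axis) among the 13456 compared genes under 5 scalings between the d12 and adult libraries (x axis). Lower genes range from 2143 with equal ribosomal protein sums to 6014 with equal FPKM sums.

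The genes with the lowest log2 ratios had several known roles. H19, an imprinted noncoding RNA known for high levels in fetal tissues, lies on chromosome 7 (chr7:142575530-142578146, minus strand, GRCm38) and had 46.5 FPKM at d12, then 12.5 at d16, 3.29 at d24 and 1.03 in the adult. It was 45.2-fold higher at d12 than in the adult library (29.4 to 73.2). Each later library held less H19 than the one before. Hbb-bs, an adult beta globin, had 24.02 FPKM at d12, then 15.1 at d16, 5.80 at d24 and 0.0258 in the adult, where this came to 0 whole fragments. Beta globin copies are near-identical and can share fragments, and their order differed between the libraries, as Hbb-b1 had 36.9, 0.768, 2.21 and 9.75 FPKM. Summed over Hbb-b1, Hbb-b2 and Hbb-bs, beta globin had 89.1 FPKM at d12, then 23.9 at d16, 13.1 at d24 and 15.6 in the adult, a ratio of d12 to adult of 5.69. H2-Q10, a nonclassical MHC class I gene, had 17.3, 8.09 and 0.402 FPKM at d12, d16 and d24 and 0 in adult testis, at least 75.7-fold higher at d12. Fabp4, the fatty acid binding protein of fat cells and capillary endothelium, had 48.5 FPKM at d12, then 13.7 at d16, 6.67 at d24 and 1.0497 in the adult. Among the 20 genes with the lowest ratios were also Dpt and Mfap4, which code for matrix proteins, and the X-linked genes Nrk, Bex2, Gpc3, Itm2a and Hs6st2.

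Of 8 red blood cell genes, 7 were in the table and 5 were compared, of which 4 were lower, beside 19.2% of all compared genes. The summed level of the list was 328.5 FPKM at d12, then 76.1 at d16, 69.6 at d24 and 80.8 in the adult. Hba-a1, an alpha globin, made up most of it with 236.2, 50.6, 52.8 and 59.4 FPKM. Of 5 adipocyte genes 2 were compared, of which Fabp4 was lower and the hormone gene Adipoq was higher, with 1.49 FPKM at d12, then 0.714 at d16, 4.25 at d24 and 9.56 in the adult. All 7 epididymis genes were under 2 FPKM in both libraries, and 5 of them were listed at 0 at d12 and 7 in adult testis. How far blood or attached tissue in a testis piece contributed to the d12 library was not tested.

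Sertoli cell genes were mostly lower in adult testis. Of 23 genes, 22 were compared, 16 were lower (72.7%), 0 were kept and 0 were higher. Among all compared genes these shares were 19.2%, 11.5% and 35.6%. The list had a median log2 ratio of -1.34, beside 0.24 for all genes. Dmrt1, a transcription factor of Sertoli cells and spermatogonia, had 77.4 FPKM at d12, then 48.9 at d16, 22.2 at d24 and 14.8 in the adult and was 5.23-fold higher at d12 (4.63 to 5.93). Aard, a gene used here as a Sertoli cell marker, had 357.7, 220.1, 110.0 and 82.2 FPKM. The d16 and d24 values of both genes lay between those of d12 and adult testis. Sox9, the factor that sets Sertoli cell fate, had 12.2, 7.64, 4.75 and 2.14 FPKM and was 5.71-fold higher at d12 (4.51 to 7.30). Wt1, a factor that maintains this fate, had 40.3, 29.7, 14.8 and 12.7 FPKM and was 3.19-fold higher at d12 (2.84 to 3.59). Amh, the anti-Müllerian hormone of immature Sertoli cells, had 3.12 FPKM at d12, then 0.817 at d16, 0.273 at d24 and no fragment in the adult, which makes it at least 15.8-fold higher at d12. Inhba, an activin and inhibin subunit, had 2.19 FPKM at d12 and was likewise listed at 0 in adult testis. The most abundant member, Clu, which codes for the secreted chaperone clusterin, differed less, with 706.7 FPKM at d12, then 609.0 at d16, 419.6 at d24 and 456.6 in the adult. Trf, the iron carrier transferrin, had the highest ratio of the list, with 6.61 FPKM at d12 and 8.66 in adult testis, a log2 ratio of 0.34 that became -0.69 with equal FPKM sums and -0.46 with equal upper quartiles. In summed FPKM the list took 0.892% of the d12 library and 0.180% of the adult library, and its median rank percentile was 77.2 at d12 and 40.2 in adult testis.

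Peritubular myoid cells are the contractile cells around the tubules. Of 12 genes 11 were compared, and 9 were lower (81.8%, beside 19.2% of all compared genes) with a median log2 ratio of -1.35. Acta2, smooth muscle actin, had 112.9 FPKM at d12, then 95.1 at d16, 47.3 at d24 and 34.2 in the adult and was 3.30-fold higher at d12 (3.05 to 3.57). Myh11, the smooth muscle myosin heavy chain, had 85.3, 65.9, 36.3 and 27.6 FPKM. Actg2, an actin of smooth muscle, went the other way with 9.47 FPKM at d12, then 5.78 at d16, 46.5 at d24 and 225.0 in the adult. Thus the most abundant member at d12 was Tpm1, a tropomyosin, and in adult testis it was Actg2. Of 13 endothelial genes 7 were compared, and 3 were lower (Cdh5, Kdr and Egfl7), 2 were kept and 0 were higher. The shares of all compared genes were 19.2% lower, 11.5% kept and 35.6% higher, and 7 members are few to set against these. Cdh5, the cadherin of endothelial junctions, had 8.25 FPKM at d12, then 4.88 at d16, 2.57 at d24 and 2.00 in the adult.

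Leydig cell genes did not share this direction. Of 16 genes 15 were compared, 1 was lower (6.67%, beside 19.2% of all compared genes), 2 were kept and 6 were higher. The counts of kept and higher members were near the background of 11.5% and 35.6%. The list had a median log2 ratio of 0.34 that became -0.59 with equal FPKM sums and -0.44 with equal upper quartiles. Its median rank percentile was 67.7 at d12 and 60.1 in adult testis. Nr5a1, the nuclear receptor SF-1 of steroid-making and Sertoli cells, was the lower member, with 17.7 FPKM at d12, then 9.66 at d16, 11.04 at d24 and 6.24 in the adult. Star, which moves cholesterol into mitochondria, had 18.8, 7.29, 11.1 and 15.1 FPKM and fell in none of the classes. Insl3, a peptide hormone of Leydig cells, had 17.5 FPKM at d12, then 15.3 at d16, 50.9 at d24 and 272.8 in the adult, 15.5-fold higher in adult testis (13.0 to 18.8). Cyp17a1, an enzyme of androgen synthesis, had 39.6, 24.55, 45.05 and 181.9 FPKM. For both genes the adult library held the highest of the 4 values. Hsd3b6, a steroid dehydrogenase of adult Leydig cells, had 3.32 FPKM at d12, then 24.6 at d16, 37.9 at d24 and 27.2 in the adult.

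Among 22 genes of cholesterol synthesis and uptake, 21 were compared, and 4 were lower (19.05%, beside 19.2% of all compared genes), 4 kept and 3 higher. Their median log2 ratio was -0.08 and became 0.08 with equal ribosomal protein sums. Nsdhl, the member at the deposited median, had -1.08 with equal FPKM sums and -0.86 with equal upper quartiles. The 2 lowest members were Insig1, which holds back the synthesis regulator SREBP (16.4 FPKM at d12 and 3.98 in adult testis), and Srebf2, which codes for that regulator (7.43 and 2.18 FPKM). Fdft1, squalene synthase, had the highest ratio, with 19.2 FPKM at d12, then 17.9 at d16, 130.2 at d24 and 181.8 in the adult.

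Macrophage genes were neither uniformly lower nor higher. Of 15 genes 10 were compared, 0 were lower, 3 were kept and 3 were higher, beside 19.2%, 11.5% and 35.6% of all compared genes. The count of higher members was thus near the background. The list had a median log2 ratio of 0.11. It became negative with equal FPKM sums (-0.98), with equal upper quartiles (-0.76) and with the median of all genes set to 0 (-0.13). Mrc1, the mannose receptor of resident macrophages, had 15.2 FPKM at d12, then 14.4 at d16, 14.9 at d24 and 16.2 in the adult. Aif1 had 1.19, 1.097, 100.5 and 459.9 FPKM, beside a summed level of the list of 65.4, 83.3, 188.7 and 543.2 FPKM. Aif1 is also known from spermatids.

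Extracellular matrix genes had the lowest median of the lists, at -2.27. Of 28 genes 27 were compared, of which 25 were lower (92.6%, beside 19.2% of all compared genes). Strongly lower were 16 of them, beside 2.36% of all, and 0 members were kept or higher. Col3a1, a fibrillar collagen, had 196.4 FPKM at d12, then 113.3 at d16, 35.0 at d24 and 18.1 in the adult, 10.8-fold higher at d12 (10.1 to 11.6). Eln, elastin, had 70.2, 38.9, 13.6 and 3.56 FPKM and was 19.7-fold higher at d12 (16.5 to 23.9). Lamb1, a laminin chain of basement membranes, had 47.8, 29.1, 11.04 and 4.99 FPKM. In these genes each later library was lower than the one before. Sparc, a collagen-binding glycoprotein and the most abundant member at every stage, had 345.6 FPKM at d12, then 269.7 at d16, 168.8 at d24 and 153.4 in the adult. The members with the smallest differences were Nid2 (5.67 FPKM at d12 and 2.73 in adult testis) and Col15a1 (8.15 and 4.01), both of basement membranes. In summed FPKM, the list took 0.498% of the d12 library and 0.0481% of the adult library, and its median rank percentile was 85.2 at d12 and 30.5 in adult testis.

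Imprinted growth genes are expressed from 1 parental allele and many are known to be high in growing fetal and neonatal tissue. Of 17 genes 15 were compared, and 12 were lower (80%, beside 19.2% of all compared genes), 7 of them strongly. The list had a median log2 ratio of -1.92 and 0 kept or higher members. Besides H19, Zim1 had 7.07 FPKM at d12, then 2.40 at d16, 0.416 at d24 and 0 in the adult, at least 73.6-fold higher at d12. Peg3, a zinc finger protein gene beside Zim1, had 27.7, 17.6, 6.79 and 3.08 FPKM and was 8.99-fold higher at d12 (7.73 to 10.5). Igf2, a fetal growth factor in the same domain as H19, had 12.4, 5.59, 3.08 and 1.73 FPKM. Igf2r, its clearance receptor, had 14.7 FPKM at d12 and 4.81 in adult testis, so that growth factor and receptor were both lower. The members that were not lower were Peg10, Grb10 and Cdkn1c, with log2 ratios of -0.59, -0.60 and -0.42.

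**Figure D3:**
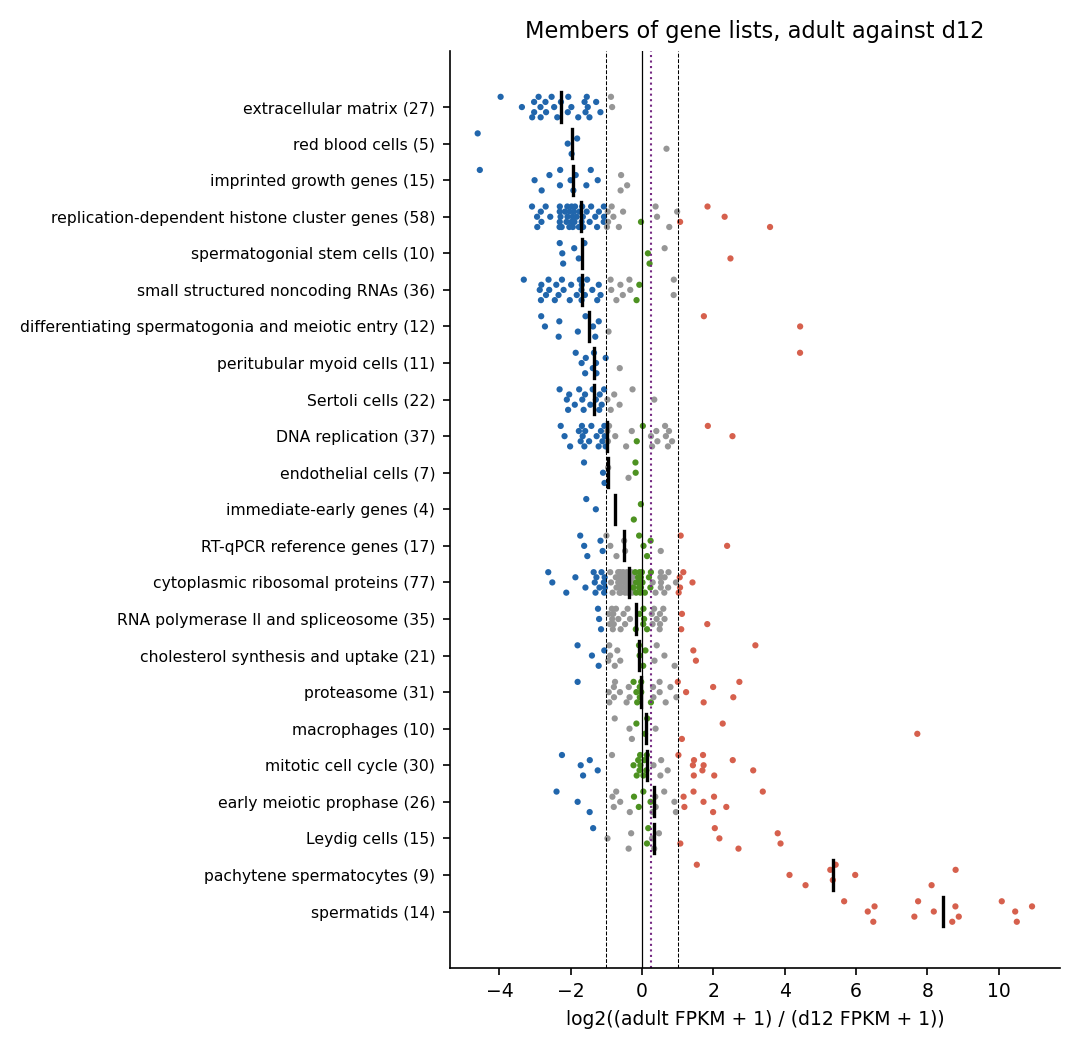
Log2 ratio of adult to d12 FPKM (x axis) of the compared members of each gene list with at least 4 of them (y axis, number of members in parentheses), 1 point per gene and a bar for the list median. Blue points are lower, green kept and red higher genes, and the dotted line is the median of all genes at 0.24. Medians run from -2.27 for extracellular matrix to 8.44 for spermatids.

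Genes of DNA replication were divided. All 37 were compared, and 18 were lower (48.6%), 2 kept and 2 higher, beside 19.2%, 11.5% and 35.6% of all compared genes. The list had a median log2 ratio of -0.97 and a median rank percentile of 78.0 at d12 and 45.3 in adult testis. Mcm2, a subunit of the MCM helicase that opens the double helix, had 28.9 FPKM at d12, then 18.65 at d16, 7.99 at d24 and 5.16 in the adult, 5.604-fold higher at d12 (4.74 to 6.67). Pola1, the catalytic subunit of DNA polymerase alpha and X-linked, had 19.3, 11.9, 3.50 and 3.50 FPKM. Mcm3, Mcm4, Mcm5 and Mcm6 were lower as well, whereas Mcm7, of the same hexamer, had 47.2 FPKM at d12, then 55.0 at d16, 88.9 at d24 and 74.5 in the adult. Pcna, the sliding clamp and the most abundant member, had 87.8, 116.6, 136.3 and 140.3 FPKM. With equal FPKM sums the log2 ratios of Mcm7 and Pcna became -0.54 and -0.53, and with equal upper quartiles -0.27 and -0.26. Rfc2 and Rpa1, a clamp loader subunit and a single-strand binding protein, were the 2 higher members, with 14.4 and 20.6 FPKM at d12 and 88.4 and 76.6 FPKM in adult testis.

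Promoters of replication genes often carry letters bound by the E2F factors, which switch on S phase genes. RefSeq promoters of 300 bases (250 before to 50 after the start, GRCm38) were found for 30 of the 37 genes. The letters TTCCCGC, on either strand, were in 13 of these 30 (43.3%), against 4.67% of all 27025 promoters and 8.23% of the 10728 found for compared genes. Of the 15 lower members with a promoter 5 held them. The letters CCAAT, on either strand, were in 22 of 30 (73.3%) against 38.0% of all promoters and 39.9% of those of compared genes, and this match may share its first base with TTCCCGC. Such a match is a description of the letters only. Windows of 29 bases around the letters nearest to the start, taken from RefSeq and GRCm38, are shown 5′ to 3′ on the strand of the gene for 3 lower members and for 3 with a log2 ratio above 0, with the match in capitals, so that both directions can be seen to share it.
Pola1 (chrX:93632259-93632287, minus strand): aatgcactcccGCGGGAAggccgggggcg
Prim1 (chr10:128015189-128015217, plus strand): ggcctgtcttgTTCCCGCcaattctcgtg
Rpa2 (chr4:132768312-132768340, plus strand): gctgtcccttcGCGGGAAggagtttgtgg
Rrm1 (chr7:102441617-102441645, plus strand): aggagaactcgTTCCCGCcaggtccgctt
Mcm7 (chr5:138172031-138172059, minus strand): aatttcgaaccGCGGGAAacagggtgtcc
Uhrf1 (chr17:56303278-56303306, plus strand): tgctttctcgcTTCCCGCcacagcgccag

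Pola1, Prim1 and Rpa2, a polymerase subunit, a primase subunit and a single-strand binding protein, had log2 ratios of -2.17, -1.72 and -1.11. Rrm1, Mcm7 and Uhrf1, a ribonucleotide reductase subunit, a helicase subunit and a reader of newly copied methylated DNA, had 0.25, 0.65 and 0.84, which became -0.94, -0.54 and -0.32 with equal FPKM sums and -0.67, -0.27 and -0.06 with equal upper quartiles. Of the 13456 compared genes under 80% had a promoter sequence, so that their shares hold for those found, and none are given for the lower genes, which were under 80% as well.

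Mitotic cell cycle genes had no common direction. Of 31 genes 30 were compared, 5 were lower, 10 kept and 10 higher, beside 19.2%, 11.5% and 35.6% of all compared genes, so that the counts of lower and higher members were near the background. Their median log2 ratio was 0.13, or -0.97 with equal FPKM sums, -0.75 with equal upper quartiles and -0.11 with the median of all genes set to 0. The lowest were Ccnd2, a G1 cyclin, with 9.45 FPKM at d12, then 4.77 at d16, 2.24 at d24 and 1.205 in the adult, and the S phase cyclin Ccna2, with 20.7, 15.96, 8.44 and 5.585 FPKM. Mki67, the widely used proliferation marker, had 76.4, 67.8, 40.7 and 31.7 FPKM. These 3 genes were lower at each later stage. Top2a, a topoisomerase that untangles chromosomes, had 169.6 FPKM at d12, then 181.5 at d16, 159.1 at d24 and 143.6 in the adult and was kept. Aurka and Ccnb2, which act at entry into division, had the highest ratios, with 13.4 and 11.7 FPKM at d12 and 124.4 and 72.8 FPKM in adult testis. Both divisions of meiosis use many of these genes too.

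Replication-dependent histone cluster genes and small structured noncoding RNAs were grouped after their values had been seen. Of 67 histone genes 58 were compared, and 42 were lower (72.4%, beside 19.2% of all compared genes), 1 was kept and 4 were higher. The list had a median log2 ratio of -1.72. Hist1h2ai had 1427 FPKM at d12, then 1029 at d16, 497.0 at d24 and 383.7 in the adult, and the linker histone gene Hist1h1a had 925.3, 650.7, 266.4 and 186.5 FPKM. Hist1h1t, the linker histone of spermatocytes, had the highest ratio, with 45.6, 398.3, 598.6 and 560.6 FPKM. Histone copies are close in sequence, so the counting could move fragments between them. Of 139 small noncoding RNAs (snoRNAs, snRNAs and the RNA parts of small RNA-protein enzymes) 36 were compared, of which 25 were lower and 0 higher. Lower members were 69.4% of those compared, beside 19.2% of all compared genes. Rpph1, the RNA of RNase P, had 4397 FPKM at d12, then 3188 at d16, 1031 at d24 and 713.9 in the adult, and Rmrp, the RNA of RNase MRP, had 3251, 1831, 422.9 and 502.4 FPKM. The small RNAs took 4.87% of the FPKM sum at d12 and 0.656% in adult testis. Fragments of such short transcripts are recovered according to library fragment size, and how far that differed between the libraries was not tested.

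Stem cell genes of spermatogonia, the dividing germ cells at the base of the tubule, were mostly lower. Of 17 genes 10 were compared, 6 were lower, 2 kept and 1 higher, beside 19.2%, 11.5% and 35.6% of all compared genes. The list had a median log2 ratio of -1.69. Zbtb16, the factor PLZF, had 10.8 FPKM at d12, then 6.23 at d16, 2.81 at d24 and 1.51 in the adult and was 7.16-fold higher at d12 (5.83 to 8.84). Uchl1, a ubiquitin hydrolase marking spermatogonia, had 94.75, 52.6, 33.9 and 24.6 FPKM. Id4, a marker of stem cells in the mouse, went the other way with 4.91 FPKM at d12, then 24.2 at d16, 34.3 at d24 and 31.95 in the adult. Gfra1, the receptor for the niche factor GDNF, had 1.20, 0.814, 1.18 and 2.41 FPKM, near the minimum for comparison, and its log2 ratio of 0.63 became -0.11 with equal FPKM sums. Nanos2 was listed at 0 at d12 and at 0.0779 FPKM in adult testis, under that minimum.

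Genes of differentiating spermatogonia and entry into meiosis were also mostly lower. All 12 found in the table were compared, 9 were lower (75%, beside 19.2% of all compared genes), 0 kept and 2 higher. The list had a median log2 ratio of -1.48. Stra8, which retinoic acid induces before meiosis, had 86.4 FPKM at d12, then 49.2 at d16, 18.99 at d24 and 12.3 in the adult, 7.05-fold higher at d12 (5.98 to 8.32). Sohlh1, a spermatogonial transcription factor, had 10.4, 4.91, 2.09 and 0.610 FPKM and was 17.1-fold higher at d12 (8.11 to 43.2). Kit, the receptor of differentiating spermatogonia, had 18.4, 11.7, 7.77 and 6.49 FPKM. The d12 library held the highest value of each of these genes. The higher members were Dmrtb1, with 7.07 FPKM at d12 and 173.5 in adult testis, and the meiotic cohesin gene Rec8, with 9.48 and 33.9 FPKM.

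Early meiotic prophase genes were spread over all classes. Of 27 genes 26 were compared, 3 were lower, 4 kept and 8 higher, beside 19.2%, 11.5% and 35.6% of all compared genes. The counts of kept and higher members were thus near the background. The list had a median log2 ratio of 0.33 that became -0.70 with equal FPKM sums and -0.52 with equal upper quartiles. Tex11, an X-linked gene for chromosome synapsis, had 77.5 FPKM at d12, then 54.1 at d16, 20.3 at d24 and 13.9 in the adult. Dmc1, the meiotic strand exchange recombinase, had 45.7, 33.3, 17.5 and 12.4 FPKM, and the cohesin gene Rad21l had 25.7, 16.2, 8.615 and 8.65 FPKM. Sycp1, the transverse filament of the synaptonemal complex, was kept on the deposited scale (log2 ratio 0.04, or -1.17 with equal FPKM sums, -0.90 with equal upper quartiles and -0.20 with the median of all genes set to 0) and was highest at d16, with 288.2 FPKM at d12, then 536.0 at d16, 308.6 at d24 and 295.8 in the adult. Syce1, of the same complex, had 81.6, 211.0, 666.0 and 862.8 FPKM and was 10.6-fold higher in adult testis (10.0 to 11.2). Components of the same complex thus fell in different classes on the deposited scale. All 9 genes of pachytene spermatocytes and all 14 of spermatids were higher, beside 35.6% of all compared genes. The median log2 ratios of these lists were 5.35 and 8.44. The 5 genes with the highest ratios were Prm2, Tnp2, Prm1, Hrasls5 and 1700019M22Rik, led by the protamine gene Prm2 with 4.57 FPKM at d12, then 2.35 at d16, 624.3 at d24 and 10910 in the adult.

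X-linked genes stood apart in the share of lower genes. Of 592 X-linked genes compared, 304 were lower (51.4%), 24 kept (4.05%) and 147 higher (24.8%), with a median log2 ratio of -1.07. Of 12761 autosomal genes 17.7% were lower, 11.9% kept and 35.9% higher, with a median of 0.29. Among single autosomes the share of lower genes ran from 15.2% on chromosome 11 to 21.4% on chromosome 6. The X share was the highest of all chromosomes in the bar plot by chromosome, and under every other scaling it also lay above the autosomal share, with 69.1% against 43.6% for equal FPKM sums and 48.1% against 14.4% for equal ribosomal protein sums. Among genes of 2 to 10 FPKM at d12, 57.8% of the X-linked and 21.6% of the autosomal genes were lower. At 10 to 50 FPKM these shares were 70.6% and 22.4%, and above 50 FPKM 81.7% and 22.7%. Another 130 X-linked genes had less than 2 FPKM at d12, which could enter the comparison only through the adult library, and 124 of these were higher, as were 2290 of 2520 autosomal genes at that level. Of 29 Y-linked genes compared 7 were lower (24.1%) and 18 higher (62.1%), beside 19.2% and 35.6% of all compared genes. The share of lower Y-linked genes was thus near the background. Their median level at d12 was 0.0445 FPKM, so that most could enter the comparison only through the adult library.

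**Figure D4:**
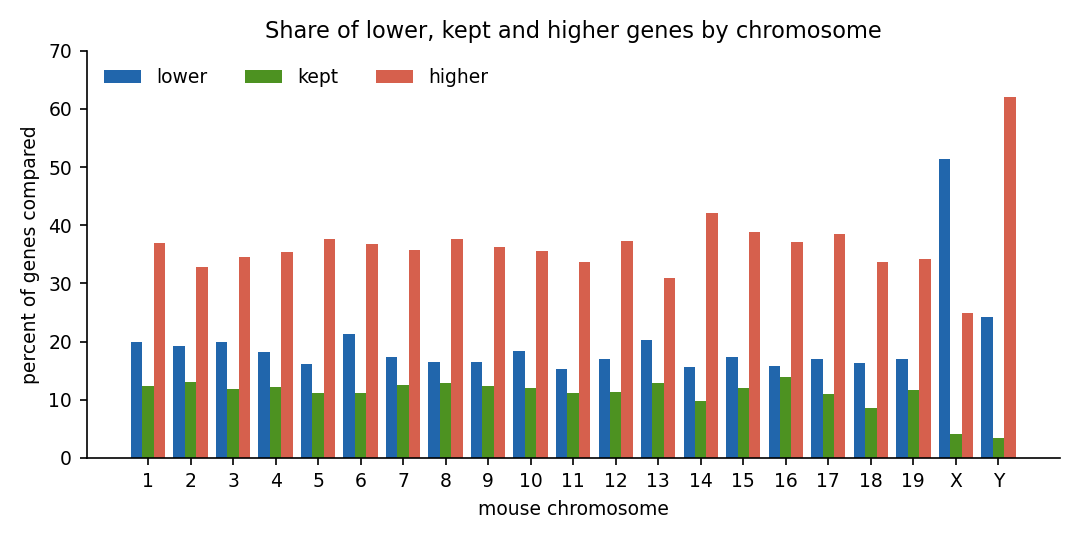
Percent of the compared genes of each mouse chromosome (x axis) that were lower, kept or higher in adult against d12 testis (y axis). The X chromosome has 51.4% lower and 4.05% kept genes, against 17.7% and 11.9% for the autosomes together.

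The X-linked gene with the lowest ratio was Nrk, a Nik-related kinase gene, with 28.1 FPKM at d12, then 11.2 at d16, 4.03 at d24 and 0.628 in the adult, 44.7-fold higher at d12 (32.4 to 63.7). Gpc3, a proteoglycan that restrains growth, had 20.1, 11.99, 2.73 and 0.989 FPKM. The X-linked lower gene with the highest d12 level was Rpl36a, a ribosomal protein gene (chrX:134585654-134588062, plus strand), with 765.7 FPKM at d12, then 449.1 at d16, 147.4 at d24 and 122.9 in the adult. All 4 X-linked ribosomal protein genes, Rpl36a, Rps4x, Rpl39 and Rpl10, were lower, with a median log2 ratio of -2.32, whereas the 73 autosomal ones had a median of -0.30 with 11 lower and 17 kept. The X-linked members were the 4 with the lowest ratios among all 77. Members of other lists on the X chromosome did not all follow, as Rhox5, a homeobox gene of Sertoli cells, had 20.3 FPKM at d12 and 16.7 in adult testis and Alas2, of heme synthesis, had 3.07 and 5.55, a direction that turned with equal FPKM sums or upper quartiles.

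The following X-linked genes, chosen after their values were seen, were kept. Uba1, the main ubiquitin activating enzyme, had 44.9 FPKM at d12, then 29.3 at d16, 27.4 at d24 and 45.1 in the adult, and the translation factor gene Eif1ax had 60.4, 33.6, 23.7 and 70.5 FPKM. Cul4b, a ubiquitin ligase scaffold, had 52.1, 36.3, 36.8 and 52.4 FPKM. In all 3 both intermediate libraries lay below both ends. The same held for 18 of the 24 kept X-linked genes, while 2 lay above both ends at d16 and d24. This was counted for X-linked genes only, and whether it differs from the other kept genes was not tested.

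The d16 and d24 libraries show where the differences between d12 and adult testis lay. Of the 2580 lower genes, 2141 (82.98%) had a lower level in each later library. The largest of the 3 steps down lay between d16 and d24 for 1756 genes (68.1%), between d12 and d16 for 547 (21.2%) and between d24 and adult for 277 (10.7%). The median step was -0.44 from d12 to d16, -0.73 from d16 to d24 and -0.30 from d24 to adult. A log2 ratio of -1 or less against d12 was already reached at d16 by 114 of them and at d24 by 1751. X-linked lower genes had the largest step between d16 and d24 in 239 of 304 (78.6%), and autosomal ones in 1505 of 2256 (66.7%). Over all X-linked genes compared the median step was -0.37, -0.55 and -0.02 in turn, against 0.00, 0.16 and -0.01 for autosomal genes. The intervals between stages differ in length, and the d12 and adult libraries enter both the choice of genes and these steps. All steps are on the deposited scale, where the FPKM sums were 283580, 307964, 472726 and 659202 in stage order. Other scalings were applied to d12 against adult only, so how far the sizes and order of the steps depend on scaling was not tested.

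**Figure D5:**
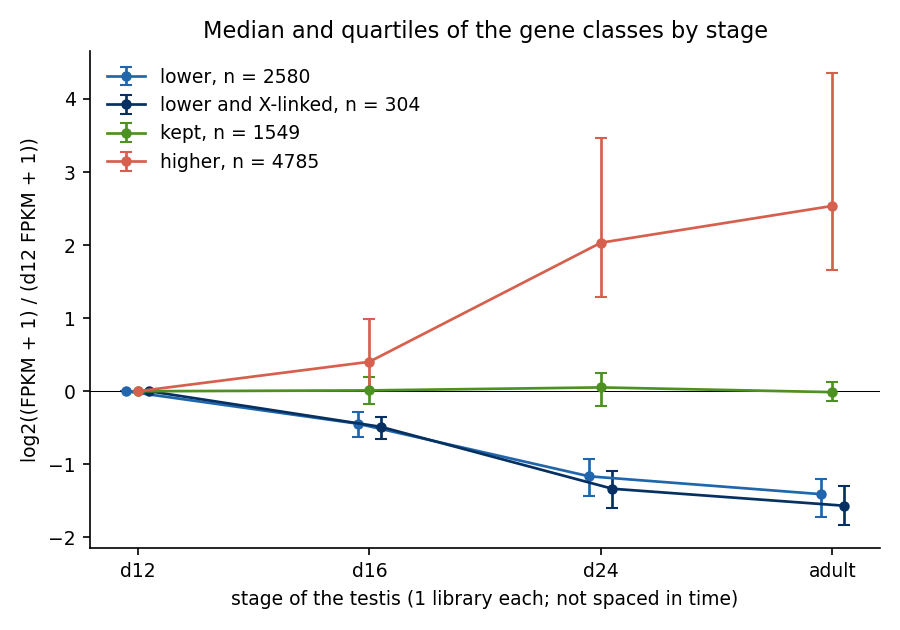
Median and quartiles over genes (points and bars) of log2((FPKM + 1)/(d12 FPKM + 1)) at each stage (x axis, not spaced in time) for the lower, lower X-linked, kept and higher genes. The bars show spread between genes, not between animals. The lower genes go down at each stage, most between d16 and d24, while the kept genes stay near 0 with wider quartiles at d24.

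Of the 2580 lower genes, 73 had a higher level at d16 than at d12. Among these, Rps27rt, named as a retrotransposed copy of a ribosomal protein gene, had 33.4 FPKM at d12, then 370.5 at d16, 136.0 at d24 and 1.24 in the adult. Its fragments could be shared with near-identical copies. Genes chosen after their values were seen included Sat2, a polyamine-related acetyltransferase, with 13.6, 22.4, 8.26 and 4.45 FPKM, and Wfdc1, a secreted protease inhibitor family member, with 14.6, 23.95, 14.5 and 5.47 FPKM.

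The 15 kept genes with the highest d12 level included Rps23, Rplp1, Rps24, Rpl35, Rpl32 and Rps26 of the ribosome. Rps23 had 1042 FPKM at d12, then 910.9 at d16, 857.9 at d24 and 1018 in the adult, a ratio of 1.02 (0.99 to 1.06). Eef1a1, which brings aminoacyl-tRNA to the ribosome, had 991.7, 878.4, 921.4 and 937.5 FPKM. Calr and Hsp90b1, chaperones of the endoplasmic reticulum, had 704.7 and 676.1 FPKM at d12 and 753.5 and 750.4 in adult testis. Sod1, superoxide dismutase, had 439.9, 351.2, 251.7 and 448.2 FPKM. In each of these 5 genes the d12 and adult values lay within the limits for kept genes. Rps23, Eef1a1 and Sod1 were below both ends at d16 and d24, and Calr and Hsp90b1 were above both ends there. With equal FPKM sums all 5 had negative log2 ratios, from -1.30 for Eef1a1 to -1.06 for Hsp90b1, so that they were kept on the deposited scale and not on that one. The cytosolic chaperones Hspa8 and Hsp90ab1 were lower, with log2 ratios of -1.50 and -1.24.

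Of the 1549 kept genes, 979 lay within 0.25 of their d12 value at d16 and 846 at d24, and 615 (39.7%) at both. By at least 1 on the log2 scale, 3 kept genes exceeded both ends at d16 or d24 and 18 lay under both. The deepest dip, chosen after the values were seen, was that of Lars2, the mitochondrial leucyl-tRNA synthetase, with 175.0 FPKM at d12, then 200.5 at d16, 17.4 at d24 and 206.2 in the adult. This dip lay in the d24 library alone, where an effect of the stage and of the single library cannot be told apart. Nr4a1, an immediate-early gene, had 3.35, 0.452, 3.14 and 3.26 FPKM. Mnd1, a meiotic recombination gene also chosen after its values were seen, had 7.67, 17.4, 8.12 and 6.93 FPKM.

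Cytoplasmic ribosomal proteins had 77 genes compared, of which 15 were lower (19.5%, beside 19.2% of all compared genes), 17 kept and 5 higher (beside 35.6% of all), with a median log2 ratio of -0.37 that stayed below 0 in all 5 scalings and a median rank percentile of 99.2 at d12 and 95.5 in adult testis. The list took 8.95% of the FPKM sum at d12, then 7.11% at d16, 4.39% at d24 and 3.39% in the adult. Rpl37 had the highest ratio, with 353.0 FPKM at d12, then 414.2 at d16, 518.4 at d24 and 942.9 in the adult. Many ribosomal protein genes have processed copies that share reads. Of 31 proteasome genes 1 was lower (3.23%), 8 kept and 6 higher, beside 19.2%, 11.5% and 35.6% of all compared genes. The list had a median of -0.02 that became 0.15 with equal ribosomal protein sums. Psmb5, the member at the deposited median, had -1.14 with equal FPKM sums and -0.89 with equal upper quartiles. Psma7, a core subunit, was the lower member (124.8 FPKM at d12 and 35.0 in adult testis), and Psmc2 and Psmc3, ATPases of the cap, had the highest ratios with 38.0 and 131.9 FPKM at d12 and 258.1 and 782.7 in adult testis. Subunits of this complex, too, fell in different classes. Of 35 genes of RNA polymerase II and the spliceosome 3 were lower (8.57%), 6 kept and 3 higher, beside the same background shares. The list had a median of -0.17 that became 0.01 with equal ribosomal protein sums. U2af1, the member at the deposited median, had -1.35 with equal FPKM sums and -1.08 with equal upper quartiles.

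Genes often used as references in RT-qPCR differed among themselves. Of 17 compared, 5 were lower (Gapdh, Hprt, Tfrc, B2m and Gusb), 4 kept (Eef1a1, Ywhaz, Ppia and Sdha) and 2 higher, among them Tbp. The shares of all compared genes were 19.2% lower, 11.5% kept and 35.6% higher. Gapdh, of glycolysis, had 68.9 FPKM at d12, then 42.6 at d16, 19.1 at d24 and 20.04 in the adult, and Hprt, of purine salvage, had 56.6, 44.6, 23.96 and 17.7 FPKM. Tbp, the TATA box binding protein, had 27.01, 58.5, 130.1 and 145.4 FPKM. Actb, cytoplasmic actin, had 348.8, 257.4, 224.3 and 246.2 FPKM. Rescaling shifts genes nearly alike, so that ratios near 0 change sign, as those of the 4 kept reference genes did under at least 1 scaling.

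Immediate-early genes, which respond to handling of tissue, were low. Of 11 genes 4 were compared, of which Jun and Egr1 were lower, with 8.62 and 3.25 FPKM at d12 and 2.92 and 0.438 in adult testis. The other compared members, Zfp36 and Nr4a1, were kept, with log2 ratios of -0.23 and -0.03. Among all compared genes 19.2% were lower and 11.5% kept, and 4 members are few to set against these. The part of immediate-early genes in the other differences was not tested. At the limit of -1, Usp31 and 1700112H15Rik lay just inside (9.43 and 2.16 FPKM at d12, 4.21 and 0.577 in adult testis), and Tfdp2 and Cacnb2 just outside (14.3 and 3.28 FPKM, 6.66 and 1.14). At 2 FPKM, Rnft2 with 2.00 FPKM at d12 was compared, whereas Marveld1 with 2.00 at d12 fell just short before rounding.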

How the data were processed

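The authors made 1 strand-specific paired-end library (ScriptSeq) per stage from total RNA. They aligned the reads with TopHat2 2.1.0, running Bowtie 1.1.2, against GRCm38/mm10, allowing 1 alignment per pair. Expression was deposited as FPKM for RefSeq genes, which Cuffdiff (Cufflinks 2.2.1) computed while correcting for multiply mapped reads and sequence bias but not for effective length. The scaling between libraries is not given in the sources used here. The 4 H3K27Ac ChIP samples were not used here.

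Genes with at least 2 FPKM in the d12 or adult library were compared on log2(FPKM + 1), so that ratios of low genes are understated. Fragments were recovered for genes whose curated transcripts differ in length by at most 1.1 times, as whole multiples of what 1 fragment is worth. Among genes with 1 transcript and up to 20 fragments, 92.5% of d12 and 92.4% of adult values lay within 0.05 of a whole number. Values have exact Poisson and ratios exact Clopper-Pearson intervals, and the limit for no fragment is 3 fragments per library, or 0.240 FPKM at d12 and 0.336 in adult testis for 1 kb. Positions came from RefSeq on GRCm38, where 22550 symbols were found, 1240 more by synonym and 193 not. On simulated data for adult against d12 with 15414 genes, 169 of 200 genes lowered 4-fold were called lower, including all 90 of 90 at 10 FPKM or more. The other 5360 genes compared there can include lowered genes that were missed, and 6 unchanged genes were called lower. The simulation drew both libraries from the d12 profile with counting error only, and lowered only genes with enough d12 fragments. It held no variation between animals and no difference in library composition, so it cannot show how these affect the calls.

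The genes, 23 lists and limits were chosen with earlier results of these data known, and 2 further lists after the values were seen. Named were the 20 genes with the lowest ratio, the 15 lower and 15 kept genes with the highest d12 level, the 5 highest ratios, genes nearest to the limits, extreme members of each list, markers at 0 and RT-qPCR reference genes. Some genes that the rule names are not reported here. Others are given as list members or as chosen after their values were seen. Alternatives were minimums of 1 and 5 FPKM or none, pseudocounts of 0.1 and 0.5, 4 scalings, genes with 1 transcript, at least 20 fragments, and, added after the values were seen, no transcripts under 300 bases. Python 3.11.15 with numpy 2.4.6, pandas 2.3.3, scipy 1.17.1 and matplotlib 3.10.9 was used.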

Additional observations from a re-analysis of the deposited data

Results flagged for a closer look

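Among the 10527 genes under 2 FPKM in both the d12 and the adult library, which the comparison left out, 138 reached 2 FPKM at d16 or d24 and 2 reached 4 FPKM. Hist2h2aa2, a histone H2A gene, was at 8.84 FPKM at d24, with 116 fragments there and none in the other 3 libraries. Ppp2r2c, a regulatory subunit gene of protein phosphatase 2A, was at 5.50 FPKM at d16, against 1.68 FPKM at d12, then 1.32 at d24 and 0.2504 in the adult. Both stood out because the signal lay in libraries that did not enter the comparison. Hist2h2aa2 has near-identical copies, so fragments could be moved between these.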

How the results depend on the processing

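No paired analysis was possible because each stage has 1 library and the labels give no replicate numbers. With equal FPKM sums, 6014 genes were lower, 1932 strongly lower and 3014 higher, and 43.6% of autosomal genes were lower. Psmd2, Rpl26 and Sf3b2, higher as deposited, then had log2 ratios of -0.21, -0.028 and -0.087. With equal upper quartiles, 5251 genes were lower, 1409 strongly lower and 37.8% of autosomal genes lower. With the median set to 0, 569 were strongly lower. Pseudocounts of 0.1 and 0.5 FPKM gave 852 and 525 strongly lower genes, and no minimum gave 4446 kept and 2734 lower genes. Among the fewer genes with 1 curated transcript, 1382 were lower, 201 strongly lower, 801 kept and 2754 higher.

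Minimums of 1 and 5 FPKM, at least 20 fragments and leaving out transcripts under 300 bases kept each of these counts within 1.5 times its value. Depth limits low genes most, since a count of 0 allows up to 0.240 FPKM at d12 and 0.336 in adult testis for a transcript of 1 kb. Differences between animals, batches and tissue pieces cannot be told apart from stage.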
